A study of Saccharomyces cerevisiae with 6 samples.

Results

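The proteasome and ubiquitin-selective segregase genes of budding yeast (Saccharomyces cerevisiae) are 43 genes chosen by name, of 5379 genes named on the array. They were the subunits of the proteasome's lid (8), base (10), core alpha ring (7) and core beta ring (7), and 5 assembly and associated factors. The others were the transcriptional activator RPN4, the ubiquitin supply genes UBA1 and UBI4, and CDC48 with its partners UFD1 and NPL4. Each of the 43 genes was represented by 1 spot, and 42 had a value on all 3 arrays and were tested. PUP1 had a value on 2 arrays and was tested in an alternative fit of genes with at least 2 arrays.

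Cells of strain S288C growing in rich glucose medium (YPD) at 25 °C were exposed to 12.6 µM zinc pyrithione, an antifungal zinc complex, for 2 h. Cells of the same strain and medium grown for the same 2 h without treatment were the control. Cy5-labelled cDNA of treated cells and Cy3-labelled cDNA of untreated cells were hybridised together on 3 two-colour arrays of independent biological samples, and every array was read with a high and a low laser power. All values are log2 ratios, averaged over both scans of an array or taken from the single scan that gave a value. Of the 43 members, 27 had a value in all 6 scans. The ratios are read as treated over untreated. That direction is likely from the order of the channels and is not stated by the deposited values. Without an array of exchanged dyes, dye and treatment cannot be told apart. Nor can the compound and its solvent, dimethyl sulfoxide, because the control is labelled as untreated.

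The proteasome degrades proteins that carry ubiquitin chains. Its core particle is a stack of alpha and beta rings that encloses the proteolytic sites. A regulatory particle, made of a base with a ring of ATPases and a lid with a deubiquitinase, recognises, unfolds and feeds substrates into the core. In yeast the activator Rpn4 binds a shared promoter element of proteasome genes, and is itself a short-lived proteasome substrate. Cdc48 is an ATPase that, with Ufd1 and Npl4, pulls ubiquitinated proteins out of complexes and membranes.

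The first comparison asked which of these genes differed between treated and untreated cells. RPT1, RPN6, UFD1 and PRE1 rose in treated cells, by 1.86-, 1.64-, 1.57- and 1.56-fold. They encode a base ATPase, a lid scaffold subunit, a Cdc48 partner and a core beta subunit. These 4 were 9.52% of the 42 members tested, at a limma adjusted p under 0.05, against 8.12% of all 4312 genes called higher, so the share of members called higher lay near that of all genes. No member was called lower (0 of 42 with limma), against 9.6% of all genes. At an unadjusted p under 0.05 there were 10 members higher and 0 lower, against 17.2% and 17.3% of all genes.

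The members' shifts were small and leaned one way. Their median log2 ratio was 0.20, against 0.03 over all genes tested, and the means ran from -0.35 (RPT2) to 0.89 (RPT1). The mean was above 0 in 34 of 42 members (81.0%), against 52.3% of all genes. All 3 arrays were positive in 16 members (38.1%), against 28.9% of all genes, and all 3 were negative in 1 member, PRE9, against 26% of all genes. The remaining 25 had arrays on both sides of 0. In PRE9 the scans of replicates 2 and 3 had opposite signs. Of the 42, 19 lay in the top 25% of all genes and 1 in the bottom 25%. Because the authors' normalization sets the average ratio near 0, these are shifts relative to the average transcript. A change in the total messenger RNA per cell would not be seen.

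**Figure D1:**
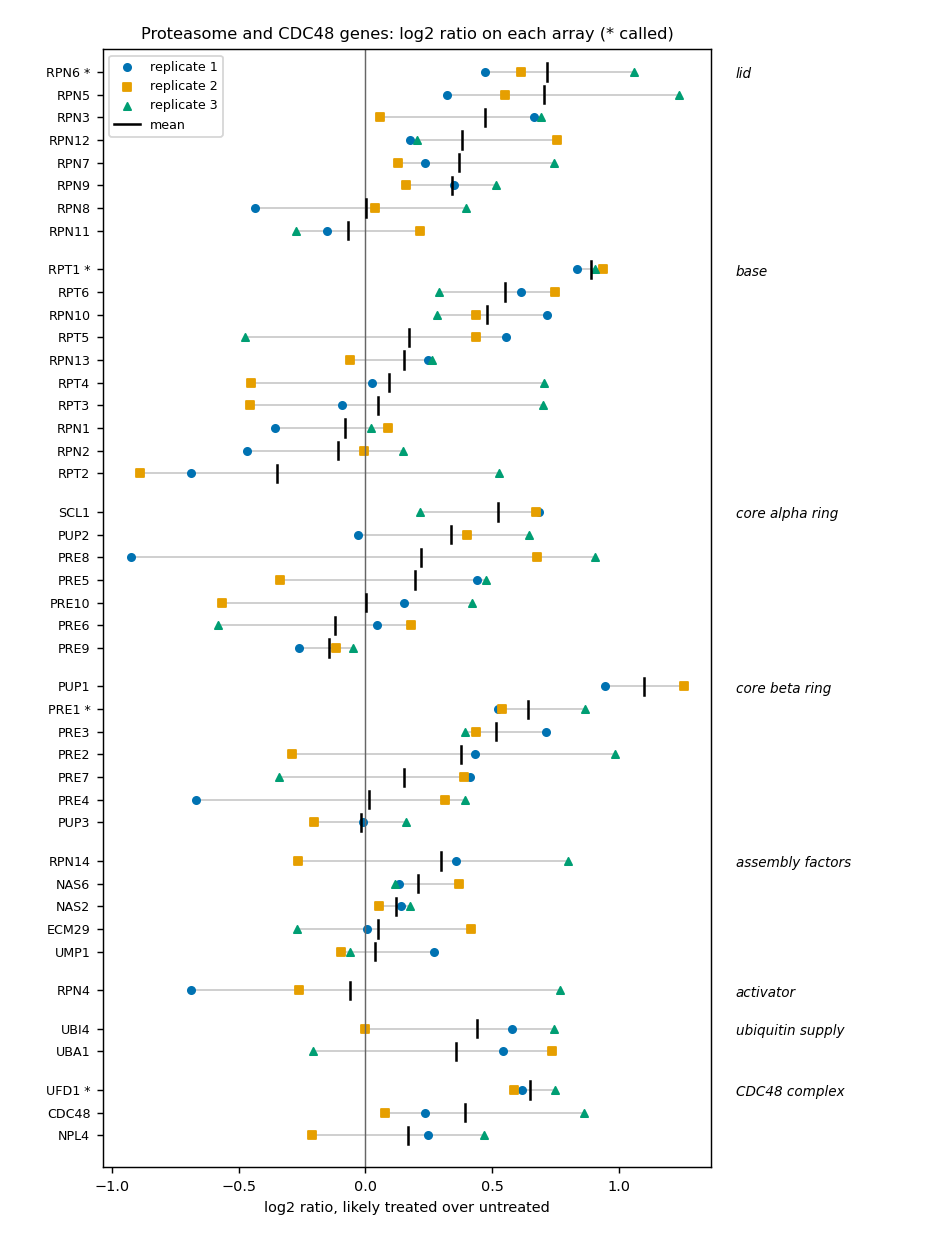
Log2 ratio (likely treated over untreated) of each of the 43 members on each array, grouped by role and ordered by mean within a role; points are replicates, the grey line their range, the black bar their mean, and an asterisk marks a limma adjusted p under 0.05. The points of RPT1 span 0.10, those of PRE8 1.83.

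RPT1 (YKL145W), an ATPase of the base ring, had log2 ratios of 0.83, 0.94 and 0.90 on the 3 arrays. All 3 were high and close together. The mean was 0.89 ± 0.05 (SD, n = 3; 95% interval 0.54 to 1.24; limma adjusted p = 0.0081), which placed RPT1 at rank 171 from the top of the 4312 genes. RPN6 (YDL097C), a scaffold subunit of the lid that contacts the core particle, had 0.47, 0.61 and 1.06, a mean of 0.72 ± 0.31 (SD, n = 3; 95% interval 0.30 to 1.13; limma adjusted p = 0.032). Replicate 3 stood above the other two, and all were positive.

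UFD1 (YGR048W) had 0.62, 0.59 and 0.75 on the 3 arrays, a mean of 0.65 ± 0.09 (SD, n = 3; 95% interval 0.297 to 1.006; limma adjusted p = 0.026). After RPT1 it had the lowest spread of the called members. PRE1 (YER012W) of the core beta ring had 0.52, 0.54 and 0.87, a mean of 0.64 ± 0.19 (SD, n = 3; 95% interval 0.27 to 1.02; limma adjusted p = 0.033). With 2 arrays most calls were lost. Without replicate 1 or without replicate 2 no member was called (0 of 42 with limma, against 3.06% and 3.13% of all genes higher). In these fits 6 and 10 members had an unadjusted p under 0.05. The share of all genes at that unadjusted threshold was not computed there, so these counts cannot be called many or few. Without replicates 1 and 2 in turn, the log2 ratios were 0.92 and 0.87 for RPT1 and 0.84 and 0.77 for RPN6. They were 0.67 and 0.68 for UFD1 and 0.70 and 0.70 for PRE1. Such means share 2 arrays with the 3-array mean, so they lie near it in part by construction. Without replicate 3 RPT1 was called higher and RPT2 lower, against 6.89% and 7.82% of all genes. RPT1 then stood at 0.89. RPN6, UFD1 and PRE1 then stood lower, at 0.54, 0.60 and 0.53, and were not called (limma adjusted p = 0.09, 0.07 and 0.092). Centring groups of spots that share the leading digits of their ID lowered RPN6 to 0.46 and PRE1 to 0.43. It ended both calls (limma adjusted p = 0.14 and 0.076). Where the spots of such an ID group lie on the array is not documented. With the low-power scans alone RPN6 stood at 0.78 and was not called (limma adjusted p = 0.067).

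A further 6 members were positive on all 3 arrays, had an unadjusted p under 0.05 and were not past the threshold. RPN5 of the lid stood at 0.70 ± 0.48 (limma adjusted p = 0.055) and the ATPase gene RPT6 at 0.55 ± 0.24 (adjusted p = 0.057). PRE3, which encodes the core subunit with caspase-like activity, stood at 0.51 ± 0.17 (adjusted p = 0.061), and SCL1 of the alpha ring at 0.52 ± 0.27 (adjusted p = 0.071). RPN10, a ubiquitin receptor of the base, had a mean of 0.48 ± 0.22 (adjusted p = 0.082), and RPN3 of the lid 0.47 ± 0.36 (adjusted p = 0.12; SD, n = 3 for each). With the high-power scans alone, RPN3, RPN10, RPN12, RPT6 and SCL1 were called too, which gave 9 of 42 members (21.4%), against 12.1% of all genes under that setting.

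In the lid, 1 of 8 genes was called higher, against 8.12% of all genes. The median log2 ratio of the lid was 0.37, against 0.03 over all genes. RPN3, RPN5, RPN6, RPN7, RPN9 and RPN12, whose products form the horseshoe scaffold of the lid, were each positive on all 3 arrays, with means from 0.34 (RPN9) to 0.72 (RPN6). The remaining lid genes were the pair whose products form the deubiquitinase module. RPN11, which encodes the deubiquitinase, had -0.15, 0.21 and -0.27 on the 3 arrays, a mean of -0.07 ± 0.25 (SD, n = 3; 95% interval -0.46 to 0.32; limma adjusted p = 0.80). RPN8, its partner, had -0.43, 0.04 and 0.40. Both genes thus had arrays on each side of 0.

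The base was more divided. The median of its 10 genes was 0.12, with 1 called higher, against 8.12% of all genes. That median was -0.02 without replicate 3 and 0.28 without replicate 2. Among the 6 ATPase genes, RPT1 and RPT6 were positive on all 3 arrays, and the other 4 were not. RPT2 (YDL007W) had -0.69, -0.89 and 0.53, a mean of -0.35 ± 0.77 (SD, n = 3; 95% interval -0.996 to 0.298; limma adjusted p = 0.41). It was the lowest member by its mean, and replicate 3 lay on the opposite side of 0 from the others. The values of RPT2 in replicates 1 and 2 came from the high-power scan alone, that of replicate 3 from both scans. Without replicate 3 RPT2 stood at -0.79 (limma adjusted p = 0.037).

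RPT3 had -0.09, -0.45 and 0.70 and RPT4 had 0.03, -0.45 and 0.70, the same order of arrays as each other. RPT5 ran the other way with 0.56, 0.44 and -0.48. Their products form 1 ring with those of RPT1, RPT2 and RPT6. The SD between replicates of RPT2, RPT3, RPT4 and RPT5 lay between 0.56 and 0.77, against a median of 0.27 over all genes, so the means of these 4 (-0.35 to 0.17) are poorly determined.

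Of the base genes without ATPase activity, the ubiquitin receptor gene RPN10 had 0.72, 0.43 and 0.28. RPN13, the gene of another receptor, had 0.25, -0.06 and 0.26 (limma adjusted p = 0.54). RPN1 and RPN2 encode the large scaffold subunits that hold the base together. RPN1 had -0.36, 0.09 and 0.02, a mean of -0.08 ± 0.24, and RPN2 had -0.47, -0.01 and 0.15, a mean of -0.11 ± 0.32 (SD, n = 3 each; limma adjusted p = 0.76 and 0.70). Neither differed from 0 beyond the spread of its arrays.

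**Figure D2:**
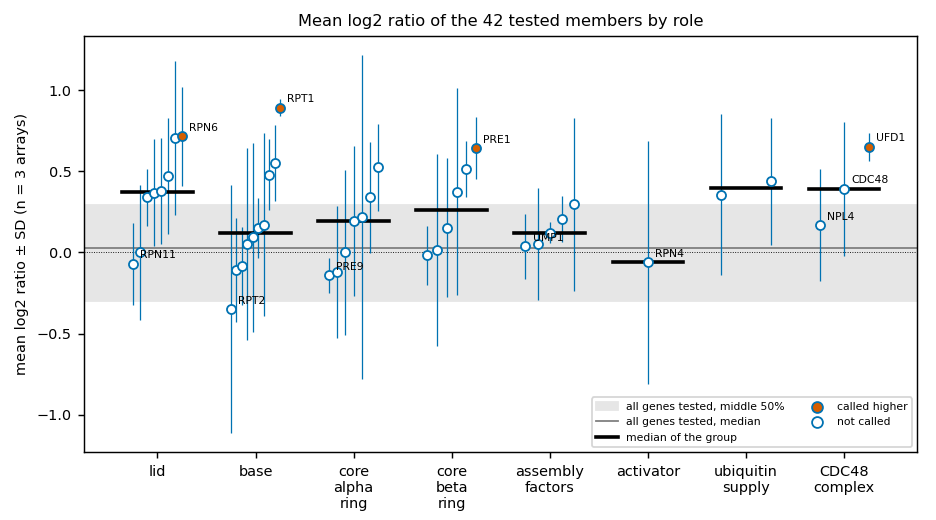
Mean log2 ratio (likely treated over untreated) with SD over 3 arrays for the 42 tested members by role; filled points were called higher, the black bar is the median of the role, and the grey line and band are the median and the middle 50% of all 4312 genes (-0.30 to 0.30). The median of the lid is 0.37, and the base holds both the highest and the lowest of the 42 members.

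The core alpha ring gates entry to the proteolytic chamber. Of its 7 genes, 0 were called with limma, against 8.12% of all genes higher and 9.6% lower. An unadjusted p under 0.05 was found for 1 (SCL1). The median was 0.19, and 0.07 without replicate 1, 0.05 without replicate 3 and 0.34 with the low-power scans alone. SCL1 had 0.68, 0.67 and 0.22 and was the 1 alpha gene positive on all arrays. PRE9, which encodes the alpha subunit that yeast can live without, had -0.26, -0.12 and -0.05, a mean of -0.14 ± 0.11 (SD, n = 3; 95% interval -0.50 to 0.22; limma adjusted p = 0.55). It was the second lowest member. Its high- and low-power scans gave 0.09 and -0.32 in replicate 2 and 0.33 and -0.43 in replicate 3. Replicate 1 had the high-power scan alone. With the high-power scans alone the mean of PRE9 was 0.05, so its sign depended on the scan. PRE6 had 0.05, 0.18 and -0.58, a mean of -0.12 ± 0.41 (limma adjusted p = 0.70), and was the third lowest. It had no low-power value on any array.

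PRE8 had the widest spread of all members, with -0.93, 0.68 and 0.90. Its value on replicate 1 came from the high-power scan alone. PUP2 (0.34 ± 0.34), PRE5 (0.19 ± 0.46) and PRE10 (0.0026 ± 0.51) each had 1 array below 0. In this ring the SD between replicates had a median of 0.41, against 0.27 over all genes.

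In the core beta ring 1 of the 6 tested genes was called higher, against 8.12% of all genes. The median was 0.26. Over the alternatives it ran from 0.14 (low-power scans alone) to 0.38 (genes with at least 2 arrays, which adds PUP1). The genes of the proteolytic subunits are PRE3, PUP1 and PRE2. PUP1 (YOR157C), whose product has trypsin-like activity, had 0.94 and 1.26 in replicates 1 and 2 and no value in either scan of replicate 3. Its mean of 1.10 ± 0.22 (SD, n = 2) was the highest of the 43 members. When genes with at least 2 arrays were fitted, PUP1 was called as well (95% interval 0.59 to 1.62; limma adjusted p = 0.020), and 5 of 43 members (11.6%) were higher, against 6.5% of all genes in that fit.

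PRE3 had 0.71, 0.43 and 0.39 on the 3 arrays. PRE2, the gene of the subunit with chymotrypsin-like activity, had 0.43, -0.29 and 0.99, a mean of 0.38 ± 0.64 (SD, n = 3; limma adjusted p = 0.32). The 3 proteolytic genes were all positive in replicate 1, but only PUP1 and PRE3 were positive on every array that measured them. Among the beta genes without a proteolytic site, PRE1 was described above, PRE7 (0.15 ± 0.43) was below 0 in replicate 3, and PUP3 (-0.02 ± 0.18) ran from -0.20 to 0.16. PRE4 had -0.67, 0.31 and 0.39, and in replicate 1 its scans differed by 1.27, at -0.03 with high power and -1.30 with low power.

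Assembly and associated factors had small values. With limma 0 of 5 were called, against 8.12% of all genes higher and 9.6% lower, and 0 had an unadjusted p under 0.05. The median was 0.12, or 0.07 with the low-power scans alone and 0.20 with ID groups of spots centred. UMP1 (YBR173C), the chaperone gene of core particle maturation, had 0.27, -0.10 and -0.06, a mean of 0.04 ± 0.20 (SD, n = 3; 95% interval -0.34 to 0.42; limma adjusted p = 0.88). ECM29, whose product holds core and regulatory particle together, had 0.01, 0.42 and -0.27. The base chaperone genes NAS2 (0.12 ± 0.06) and NAS6 (0.21 ± 0.14) were positive on all 3 arrays at low values (limma adjusted p = 0.60 and 0.39). RPN14, another base chaperone gene, stood at 0.30 ± 0.54 (adjusted p = 0.38).

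RPN4 (YDL020C), the activator gene, had -0.69, -0.26 and 0.77 on the 3 arrays. It was below 0 in replicates 1 and 2 and above 0 in replicate 3. Its value in replicate 1 came from the high-power scan alone. The mean was -0.06 ± 0.75 (SD, n = 3; 95% interval -0.70 to 0.57; limma adjusted p = 0.89). The arrays spanned 1.45, and the interval holds shifts of either sign.

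Of the CDC48 complex, 1 of 3 genes was called higher, against 8.12% of all genes. The median was 0.39, and 0.16 without replicate 3. CDC48 (YDL126C) had 0.24, 0.08 and 0.86, a mean of 0.39 ± 0.41 (SD, n = 3; 95% interval -0.06 to 0.85; limma adjusted p = 0.20). All 3 arrays were positive, with replicate 3 well above the others. NPL4 (YBR170C) had 0.25, -0.21 and 0.47, a mean of 0.17 ± 0.35 (limma adjusted p = 0.55). Replicate 2 was the lowest array for each gene of the complex.

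Neither ubiquitin supply gene was called with limma, and 0 of the 2 had an unadjusted p under 0.05. UBI4, the stress-inducible polyubiquitin gene, had 0.58, -0.0032 and 0.74 (limma adjusted p = 0.15). UBA1, which encodes the ubiquitin-activating enzyme, had 0.54, 0.73 and -0.21 (adjusted p = 0.28). UBI4 shares its coding repeat with RPS31 and RPL40B, so a cDNA spot of one can bind transcripts of the others.

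Replicate 3 stood apart for these genes. It held the highest of the 3 values in 27 of 42 members (64.3%), against 36.6% of all genes. The members' medians were 0.24, 0.14 and 0.41 in replicates 1, 2 and 3, and the all-gene medians 0.01, 0.04 and 0.03. In the same order 30, 27 and 34 of the 42 members were positive. A range of more than 1 between arrays was found in 9 members: RPT2, RPT3, RPT4, RPT5, PRE8, PRE2, PRE4, RPN14 and RPN4.

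Members are no replicates of each other. Across 42 of them, the values of replicates 1 and 2 correlated with Pearson's r of 0.38, those of replicates 1 and 3 with 0.06, and those of 2 and 3 with -0.07. Over all 4312 genes, whose ratios cover a far wider range, the same pairs gave 0.72, 0.67 and 0.65. Across the members, replicate 3 was nearly uncorrelated with either of the other arrays.

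The scans of an array also differed. Both scans gave a value for 36, 32 and 40 members in replicates 1, 2 and 3. The median absolute difference between them was 0.11, 0.23 and 0.31, against 0.15, 0.19 and 0.28 over all genes with both scans. In replicate 3 the scans had opposite signs in 8 of the 40 members, against 22.1% of all genes, and differed by more than 0.5 in 11 (27.5%), against 21.0%. The low-power scans spread the members more widely: their SD over members was 0.47, 0.54 and 0.59, against 0.32, 0.35 and 0.30 in the high-power scans of the same members and arrays. Over all genes with both scans the direction was the same, at 0.62, 0.71 and 0.72 with low power, against 0.54, 0.63 and 0.58. UBA1 in replicate 3 had 0.20 with high power and -0.61 with low power. The part of laser power in the differences between arrays was not tested.

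**Figure D3:**
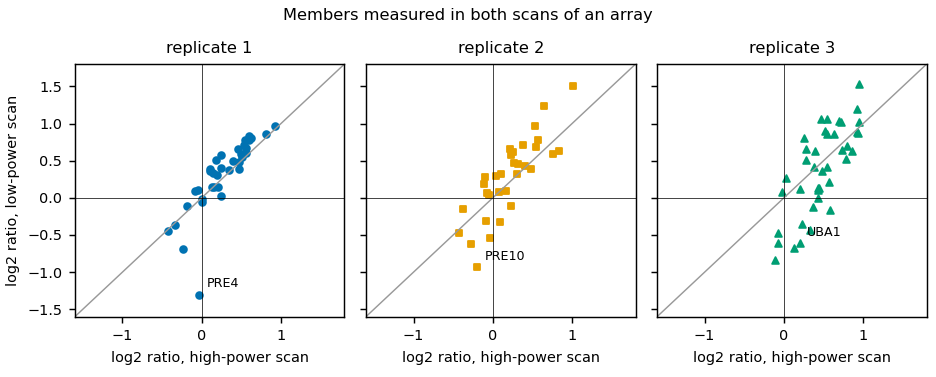
Log2 ratio of each member in the low-power scan (vertical) against the high-power scan (horizontal), 1 panel per array, for the 36, 32 and 40 members with both scans; the grey line marks equal values and the named gene has the largest difference of its panel. Points in replicate 3 fall farther from the line, with a median absolute difference of 0.31.

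The second comparison took 51 further genes of the pathway, of which 45 had a named spot and 44 were tested. Of these, 4 were higher and 3 lower in treated cells (limma adjusted p under 0.05), 9.09% and 6.82%, against 8.12% and 9.6% of all genes. Their median log2 ratio was 0.03, the same as over all genes at this rounding.

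Among 9 other proteasome genes, HSM3 (YBR272C) rose. Its product is a base chaperone that binds the Rpt1 subunit. The arrays gave 0.79, 0.70 and 0.64, a mean of 0.71 ± 0.08 (SD, n = 3; limma adjusted p = 0.019), and the median of the 9 genes was 0.40. The HSM3 values of replicates 1 and 2 came from the high-power scan alone. HSM3 was not called without replicate 1 or 2 (0.67 and 0.72, limma adjusted p = 0.12 and 0.084). HSM3 and RPT1 were both high on each array, with low spread. Other base genes did not follow, with means of -0.35 for RPT2 and -0.08 for RPN1. The base chaperone genes NAS2, NAS6 and RPN14 (0.12, 0.21 and 0.30) were not called. A link between HSM3 and RPT1 was not tested.

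CDC48 cofactors went both ways, with 1 of 11 higher and 1 lower, against 8.12% and 9.6% of all genes. Their median was 0.09. UBX6 (YJL048C), which encodes a UBX domain protein that binds Cdc48, fell. It had -1.67, -2.45 and -1.76 on the 3 arrays, a mean of -1.96 ± 0.43 (SD, n = 3; limma adjusted p = 0.00085), 3.88-fold lower in treated cells. It ranked 34 from the bottom of all 4312 genes and was farther from 0 than any member. For UBX6, and for UBX5 below, the values of replicates 1 and 2 came from the high-power scan alone. UBX5 (YDR330W), another adaptor gene of the same domain family, stood at 0.60 ± 0.17 (limma adjusted p = 0.041) and was called higher by a narrow margin. It was not called in the fit of genes with at least 2 arrays (0.60, limma adjusted p = 0.050, just above the threshold) or with any 1 replicate left out (0.50 to 0.67; adjusted p = 0.10 to 0.16).

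Of the 3 shuttle factor genes, whose products carry ubiquitinated proteins to the proteasome, DSK2 rose, with 0.95, 0.46 and 0.76 and a mean of 0.72 ± 0.25 (SD, n = 3; limma adjusted p = 0.026). Its call was lost with any 1 replicate left out (0.61 to 0.85, limma adjusted p = 0.056 to 0.16). It was also lost with ID groups of spots centred (0.54, adjusted p = 0.063). DSK2 had no low-power value on any array. The median of the 3 was 0.55. Of 10 tested genes of ubiquitin conjugation, 0 were higher and 1 was lower, against 8.12% and 9.6% of all genes. MUB1, whose product works with the ligase Ubr2 in the turnover of Rpn4, fell to -0.63 ± 0.22 (limma adjusted p = 0.038), with all 3 arrays below 0. With any 1 replicate left out MUB1 was not called (-0.73 to -0.51; limma adjusted p = 0.050, just above the threshold, to 0.18). In replicate 2 MUB1 had the high-power scan alone. UBR2 itself had 0.39 and -0.17 in replicates 1 and 3 and was not tested.

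Ubiquitin genes and deubiquitinases had a median of -0.15, with 0 of 7 higher and 1 lower, against 8.12% and 9.6% of all genes. RPS31, which encodes ubiquitin fused to a ribosomal protein, had -0.60, -0.57 and -0.77, a mean of -0.65 ± 0.11 (SD, n = 3; limma adjusted p = 0.027). It was not called with any 1 replicate left out (-0.69 to -0.59; limma adjusted p = 0.075 to 0.12) or with the low-power scans alone (-0.78, adjusted p = 0.064). The mean of UBI4, which also encodes ubiquitin, was positive at 0.44 ± 0.39.

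Of 4 genes whose products are known to activate RPN4, PDR3 rose. The drug resistance regulator gene had 0.40, 0.79 and 1.03, a mean of 0.74 ± 0.31 (SD, n = 3; limma adjusted p = 0.029). The median of the 4 was 0.57, and 3 of them had an unadjusted p under 0.05, all higher, against 17.2% of all genes. With any 1 replicate left out PDR3 was not called (0.60 to 0.91; limma adjusted p = 0.058 to 0.12). PDR3 had the high-power scan alone in replicates 1 and 2. RPN4 itself had a mean of -0.06.

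**Figure D4:**
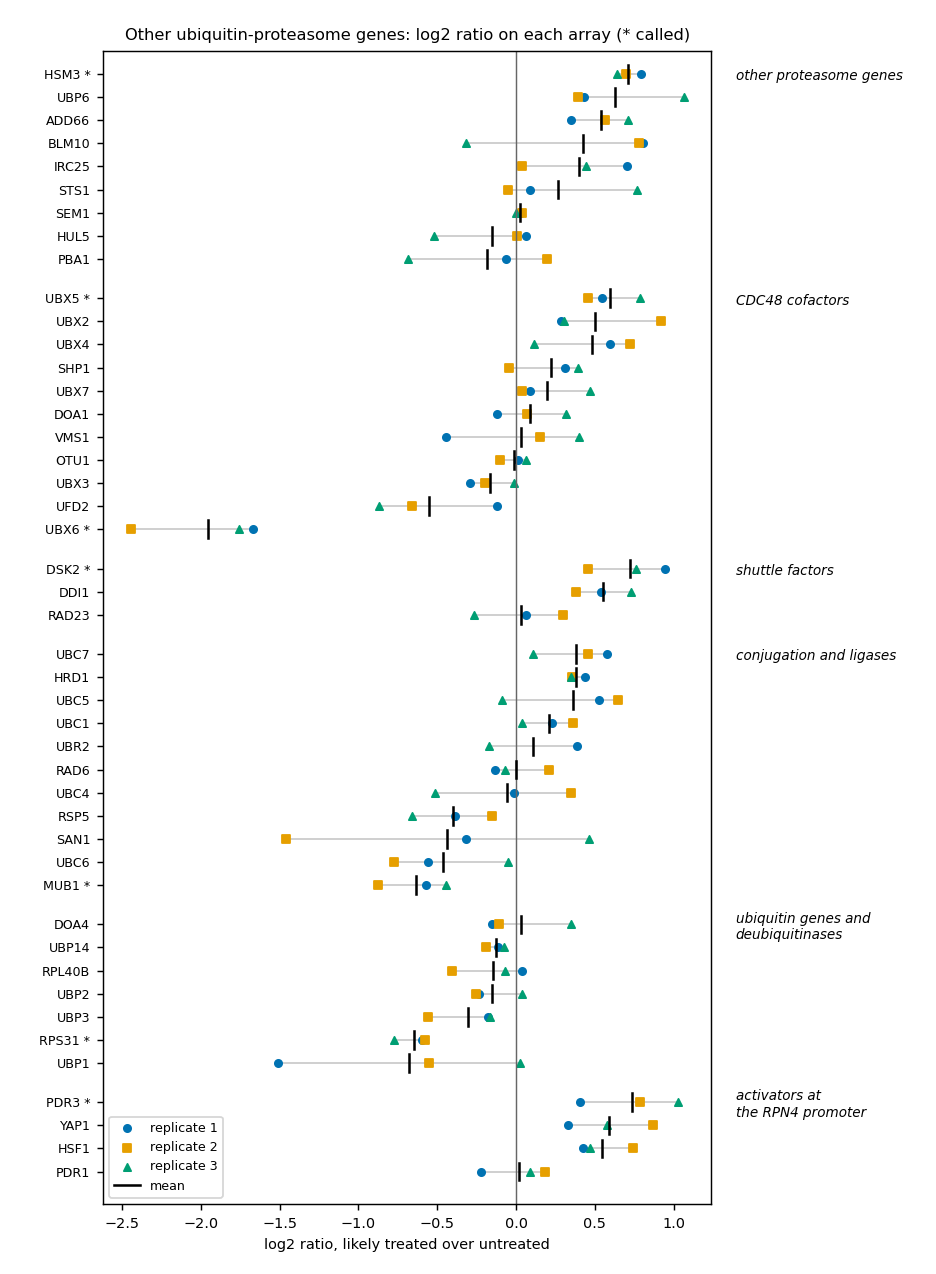
Log2 ratio (likely treated over untreated) on each array of the 45 other pathway genes with a named spot, grouped by list; symbols are as in the plot of the members by array, and an asterisk marks a limma adjusted p under 0.05. UBX6 lies between -2.45 and -1.67, apart from the other genes of its list.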

How the data were processed

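The authors deposited log2 ratios of both dyes, 1 column per scan, for 6912 spots. Per the labels, unflagged spots were used for LOWESS normalization. The log base was read from the values (both signs around 0, lowest value -6.64), and which dye is on top is not stated. Spot intensities were not used here, so signal over background is unknown, and the number of arrays limits the precision. The platform annotation gave 1 gene for each of 5446 spots, all matched to RefSeq (assembly R64, for names alone). There were 0 unused sample columns.

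Each array's value is the mean of its scans, or the single scan that gave one. The 4312 genes measured in every replicate were fitted together with limma 3.58.1 (R 4.3.3, lmFit and eBayes, mean log2 ratio against 0) with Benjamini-Hochberg adjustment and a threshold of 0.05, and the members' results were taken from that fit. The procedure was tested on simulated data. Lists are described by counts and medians, without a test.

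All 43 members are reported. Array values are given for called members, the 3 lowest, RPN4, UMP1, CDC48 and NPL4. They are also given for others where arrays disagreed, and for SCL1, PRE3, RPN10 and PUP1, positive on every array that measured them (chosen after their values were seen). Of the other lists, called genes are named. UBR2 was added after its values were seen. The members and lists were chosen with earlier results of these data known. A planned search of promoters for the Rpn4 element was not run, because no sequence was used here. Alternatives are given under the dependence on processing. Figures were drawn with matplotlib 3.10.9.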

Additional observations from a re-analysis of the deposited data

How the results depend on the processing

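Over all genes, 350 were higher and 414 lower. These counts became 74 and 77 with the low-power scans alone and 175 and 182 for genes with both scans on all arrays, where fewer genes were tested (1429 and 1372). They were 65 and 77 with limma's treat against 1.5-fold, 132 and 163 at an adjusted p under 0.01, and 602 higher at an adjusted p under 0.1. Leaving out 1 replicate gave 132 to 297 higher and 176 to 337 lower. The count of 4 members higher became 9 with the high-power scans alone, 1 with the low-power scans alone (27 members tested), 6 for the 27 members with both scans on all arrays (22.2%, against 12.8% of all genes there; PRE3, RPN5, RPT6 and SCL1 were added), 0 with treat (1 at an unadjusted p under 0.05), 1 at an adjusted p under 0.01 and 9 at an adjusted p under 0.1. Leaving out 1 replicate gave 0 to 1 members higher and 0 to 1 lower. For treat, the share of all genes at an unadjusted p under 0.05 was not computed. The members' median of 0.20 became 0.34 for those 27 members, 0.31 with ID groups of spots centred, and was 0.14 to 0.29 with 1 replicate left out. RPT1 kept its call in 11 of 14 alternatives, losing it with treat and without replicate 1 or 2 (limma adjusted p = 0.51, 0.053 and 0.051). This count and those below include an adjusted p under 0.1, which could not end a call made at 0.05. They also include limma's robust eBayes, which nearly repeated the main fit (RPT1 adjusted p = 0.0082, against 0.0081). UFD1 kept its call in 7 of 12, RPN6 in 7 of 14 and PRE1 in 6 of 12. Centring each group of 36 spots that share the leading digits of their ID was an alternative chosen after seeing the data. It ended the calls of RPN6, PRE1 and DSK2 (limma adjusted p = 0.14, 0.076 and 0.063) and added PRE3. That such a group is a region of the array was assumed, because the layout is not documented. Of the other pathway genes, UBX6 kept its call in all 12 alternatives run on it, HSM3 in 8 of 12, MUB1 and PDR3 in 7 of 12, DSK2 and UBX5 in 6 of 12 and RPS31 in 8 of 14. No tested member changed sign in a way that involved a call. The causes of these changes were not tested. Each array sets 1 treated against 1 untreated culture, so the test of the ratios against 0 is already paired. The series has a single group of ratios, so no further pairing was possible.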
